A study of Rattus norvegicus with 16 samples.

Results

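The genes *Tra2a*, *Tra2b*, *Pnn*, *Pspc1*, *Sfpq* and *Nono* encode splicing factors and paraspeckle proteins, and their signals were followed in rat brain through zinc deficiency and recovery. These are 6 of the 14217 genes named on the array. Every probe set that the platform annotation gives to one of these symbols was taken, 13 in all. A probe set is a group of short oligonucleotides that together read 1 transcript. *Tra2a* had been picked for its difference between zinc-deficient and pair-fed rats, and *Pnn* and *Pspc1* for theirs between recovered rats and the controls of that group. In those comparisons, and in contrasts built from the same arrays that are not orthogonal to them, the values of these 3 genes are a description and carry no test.

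The tissue was the diencephalon, which holds the thalamus and hypothalamus, of male Sprague-Dawley rats that were 5 weeks old at the start. ZD rats ate a zinc-deficient diet with 0.6 mg zinc per kg, as much as they wished, for 10 days. PF rats received the control diet with 30 mg zinc per kg for 10 days, limited to what the ZD rats ate. ZR rats had 10 days of the deficient diet and then 6 days of control diet at a fixed ration of 13 g, 16 days in all, and ZRPF rats were pair-fed for 10 days and then had the same ration for 6 days. All 4 groups took a preference test with 300 mM NaCl, and 4 rats of each group, chosen by the submitters as average in body weight, plasma zinc and salt preference, gave 1 array each. P-values therefore measure the spread between chosen rats. Whether fewer cells or less RNA per cell lies behind a lower signal cannot be told apart in whole tissue.

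*Tra2a* and *Tra2b* encode splicing activators with arginine-serine repeats, relatives of the SR proteins, which bind purine-rich exon enhancers and promote exon inclusion. *Pnn* encodes pinin, a protein of nuclear speckles that was first described at desmosomes and works with the exon junction complex component RNPS1. *Pspc1*, *Sfpq* and *Nono* encode the DBHS family of RNA-binding proteins, which pair with each other and form the core of paraspeckles, nuclear bodies built on the long noncoding RNA Neat1, and SFPQ and NONO also act in transcription and pre-mRNA splicing.

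By plain group means, the brighter probe sets of *Pnn* and *Pspc1* were lowest in the same 1 of the 4 groups, ZRPF, so the sequences before their start sites are shown. None of the dimmer probe sets of these genes had its lowest mean there, and *Pnn* 1380001_at had its highest. Both genes were picked for their difference between ZR and ZRPF, so the shared low ZRPF mean may follow in part from the picking. Promoter sequence from RefSeq, build GRCr8, was matched for 5 of the 6 genes, and *Tra2a* was the remaining one. Each line gives the 250 bases before the annotated start, on the strand of the gene, with capitals marking CCAAT on either strand or GGGCGG. The *Pnn* stretch is chr6:82492782-82493031 on the plus strand and the *Pspc1* stretch is chr15:35026829-35027078 on the minus strand.
Pnn: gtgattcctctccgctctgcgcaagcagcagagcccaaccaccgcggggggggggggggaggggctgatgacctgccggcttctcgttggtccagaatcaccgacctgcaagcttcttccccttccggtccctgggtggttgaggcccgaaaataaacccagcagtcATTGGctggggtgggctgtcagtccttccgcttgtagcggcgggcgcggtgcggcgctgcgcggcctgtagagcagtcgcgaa
Pspc1: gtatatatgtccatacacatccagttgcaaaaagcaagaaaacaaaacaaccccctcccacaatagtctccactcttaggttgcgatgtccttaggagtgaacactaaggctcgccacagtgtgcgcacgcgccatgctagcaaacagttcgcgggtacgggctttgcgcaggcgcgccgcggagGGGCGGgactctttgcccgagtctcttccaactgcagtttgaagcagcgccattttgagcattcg
The *Pnn* stretch holds CCAAT once, on the opposite strand, 83 bases before the start, and no GGGCGG. The *Pspc1* stretch holds GGGCGG once, 65 bases before the start, and no CCAAT. Searched on both strands, CCAAT was found in 3 of the 5 matched genes (*Pnn*, *Sfpq* and *Nono*) and in 34.0% of 33469 rat promoters of the same length. GGGCGG was found in *Tra2b* and *Pspc1* and in 30.5% of promoters, TGACG in *Tra2b* alone and in 18.2%, and CACGTG and TATAAA in none of the 5 and in 5.59% and 12.9%. None of these motifs is shared by *Pnn* and *Pspc1*.

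The values are MAS5 signals on the log2 scale. Of the 13 probe sets, 10 were at or above the median of all probe sets (a mean log2 signal of 7.35) and were tested among 15521 probe sets, and 3 dim ones (*Pnn* 1380001_at and 1396463_at, *Pspc1* 1392162_at) were not. Arrays of 1 group correlated at 0.974 to 0.987 and arrays of different experiments at 0.952 to 0.972. The median signal per array was 157 to 173. Genes expressed in thalamus (*Tcf7l2*, *Slc17a6*) and hypothalamus (*Hcrt*, *Pmch*, *Avp*, *Oxt*) were above the filter on every array, the lowest value being 9.90 for *Hcrt*. The ratio of 3′ to 5′ control probe sets, a measure of RNA integrity and labelling, was 4.14 to 5.59 on the 16-day arrays and 2.59 to 3.31 on the 10-day arrays for *Actb*, and 1.11 to 1.23 on the 16-day arrays and 1.03 to 1.11 on the 10-day arrays for *Gapdh*. The 10-day and 16-day experiments differ in age, in time and in the 6 days on a 13 g ration of control diet, which cannot be told apart. The sample labels used here give no array run.

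**Figure D1:**
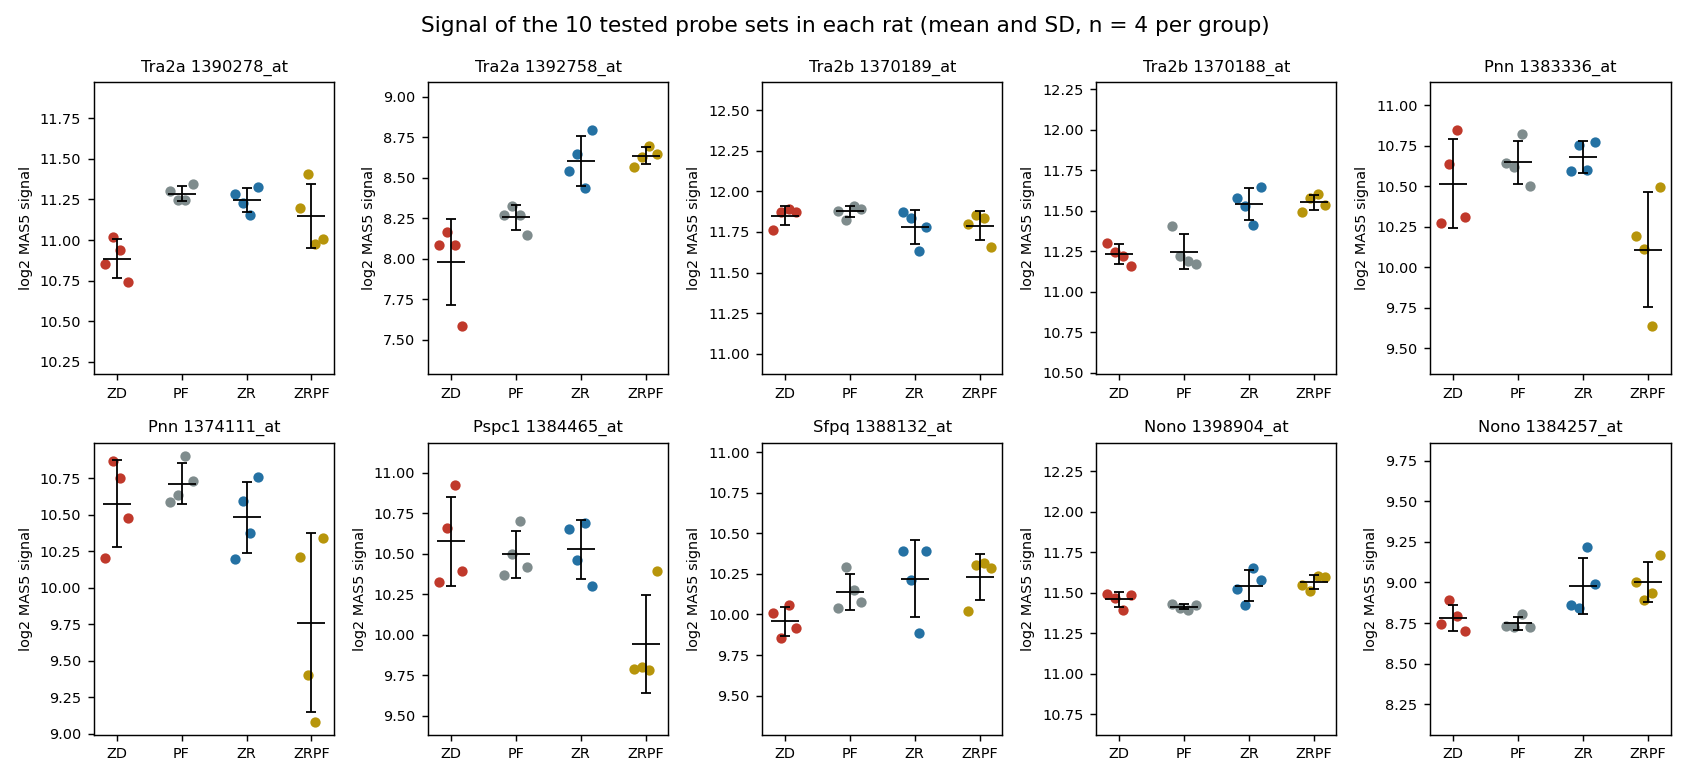
The log2 MAS5 signal of each tested probe set is plotted by group (ZD, PF, ZR, ZRPF), 1 point per array, with a bar at each group mean and whiskers of 1 SD. The *Tra2a* 1390278_at points of ZD all sit below those of PF, and 3 of the 4 ZRPF points of *Pspc1* sit near 9.8, below every other array.

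Zinc deficiency as such, apart from reduced food intake, is addressed by ZD against PF. *Tra2a*, the gene picked from this contrast, averaged lower in ZD at both probe sets, and no probe set of the 6 genes, *Tra2a* included, had an adjusted p under 0.05. At the brighter *Tra2a* probe set, 1390278_at, the 4 ZD arrays read 10.85, 11.02, 10.94 and 10.74, against 11.30, 11.25, 11.25 and 11.34 in PF. Every ZD array was below every PF array, and the PF arrays lay close together. The log2 fold change was -0.40 ± 0.08 (SE), 0.758-fold on the linear scale, with group means of 10.89 ± 0.12 in ZD and 11.29 ± 0.05 in PF (SD, n = 4). At the dimmer probe set, 1392758_at, ZD arrays read 8.09, 8.16, 8.08 and 7.58, against 8.27, 8.33, 8.27 and 8.15 in PF. The groups overlapped there by a narrow margin, and 1 ZD array (rat 9) lay far below the rest. Its log2 fold change of -0.28 ± 0.12 became -0.14 without that rat.

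*Tra2b*, the close relative of *Tra2a*, had log2 fold changes of -0.03 ± 0.06 at 1370189_at (limma, adjusted p = 0.945) and -0.01 ± 0.06 at 1370188_at (adjusted p = 0.971). The 95% intervals ran from -0.15 to 0.10 and from -0.15 to 0.12. The splicing and DBHS partner *Sfpq* read 10.01, 9.85, 10.06 and 9.91 in ZD, against 10.04, 10.29, 10.15 and 10.08 in PF. The ranges overlapped, with a log2 fold change of -0.18 ± 0.10 (limma, adjusted p = 0.698) and an interval from -0.40 to 0.03. *Nono* differed by 0.05 ± 0.05 at 1398904_at and 0.04 ± 0.09 at 1384257_at (adjusted p = 0.867 and 0.950). *Pnn* differed by -0.13 ± 0.15 at 1383336_at and -0.14 ± 0.22 at 1374111_at (adjusted p = 0.859 and 0.911), and *Pspc1* by 0.08 ± 0.14 (adjusted p = 0.927). The intervals of *Nono* 1398904_at, -0.07 to 0.16, and of *Tra2b* were the narrowest, and the widest ran from -0.60 to 0.32 at *Pnn* 1374111_at.

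Of the 10 tested probe sets, 0 passed an adjusted p of 0.05 in ZD against PF with limma, where 0% of the 15521 passed and 1220 had an unadjusted p under 0.05. The groups did not overlap in 1 of the 10, the *Tra2a* probe set named above, against 1.7% of all probe sets with ZD lower. Since *Tra2a* had been picked from this contrast, its place there is a description only. Markers of several cell types shifted in the same contrast, none of them past an adjusted p of 0.05. All 8 tested choroid plexus markers were higher in ZD, with a summed signal of 9551 to 21771 in ZD and 8639 to 10113 in PF, as were all 10 tested meningeal and mural markers (5097 to 8038 in ZD, 4776 to 5596 in PF), and no such marker was at 0. Microglia (6 of 8), endothelial (8 of 9) and ependyma (6 of 7) markers were mostly higher, with 4, 2 and 3 at an unadjusted p under 0.05 in limma. Neuron (6 of 9), astrocyte (7 of 8) and oligodendrocyte (5 of 7) markers were mostly lower, with 0 at that level. With the choroid plexus level as a covariate, the *Tra2a* log2 fold changes were -0.37 and -0.38, and the part of the meningeal and other markers was not tested.

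Recovery on a zinc-adequate ration is addressed by ZR against ZRPF. *Pnn* and *Pspc1*, which were picked from this contrast, averaged higher in ZR by 0.57 to 0.72 on the log2 scale at their bright probe sets, and no probe set of the 6 genes, these included, had an adjusted p under 0.05. For *Pspc1* at 1384465_at the ZR arrays read 10.66, 10.46, 10.69 and 10.30, against 9.79, 9.80, 9.78 and 10.39 in ZRPF. The groups overlapped only because ZRPF rat 6 was above the lowest ZR array. The log2 fold change was 0.58 ± 0.14, 1.50-fold, and 0.74 without ZRPF rat 6.

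For *Pnn* at 1383336_at the ZR arrays read 10.59, 10.76, 10.60 and 10.78, against 10.20, 10.11, 9.64 and 10.49 in ZRPF. Every ZR array was above every ZRPF array, and again ZRPF rat 6 was the highest of its group. The difference was 0.57 ± 0.15, 1.49-fold. At 1374111_at the ZR arrays read 10.20, 10.59, 10.38 and 10.76, against 10.21, 9.40, 9.08 and 10.34 in ZRPF. Here the ranges overlapped, since ZRPF rats 2 and 6 were as high as the lowest ZR rat while rats 4 and 5 were far lower. The difference was 0.72 ± 0.22, and 0.50 without ZRPF rat 5.

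Both dim *Pnn* probe sets had the opposite sign, and the dim *Pspc1* probe set had the same sign as the bright one. *Pnn* 1380001_at read 7.50, 7.98, 7.08 and 7.44 in ZR, against 7.66, 8.18, 7.58 and 7.52 in ZRPF, a difference of -0.23 ± 0.23 in a fit without the filter. *Pnn* 1396463_at stood at -0.11 ± 0.22 and *Pspc1* 1392162_at at 0.23 ± 0.25, both with overlapping groups.

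By group means without a covariate, ZRPF had the lowest mean of the 4 groups at *Pspc1* and at both bright *Pnn* probe sets, and the mean of ZR lay near those of ZD and PF. *Pspc1* averaged 10.53 ± 0.18 in ZR and 9.94 ± 0.30 in ZRPF, and 10.58 ± 0.27 in ZD and 10.50 ± 0.15 in PF (SD, n = 4 each). *Pnn* 1383336_at averaged 10.68 ± 0.10 in ZR and 10.11 ± 0.35 in ZRPF, and 10.52 ± 0.28 in ZD and 10.65 ± 0.13 in PF. *Pnn* 1374111_at averaged 10.48 ± 0.24 in ZR and 9.76 ± 0.61 in ZRPF, and 10.58 ± 0.30 in ZD and 10.71 ± 0.14 in PF. ZRPF against PF was -0.55 ± 0.14 for *Pspc1*, and -0.54 ± 0.15 and -0.95 ± 0.22 for the bright *Pnn* probe sets. ZR against ZD was -0.05 ± 0.14 for *Pspc1*, and 0.17 ± 0.15 and -0.09 ± 0.22 for *Pnn*. The 4 contrasts share arrays, so these values restate the group means and are not separate evidence. They moved with the control ratios as covariates. With the *Gapdh* ratio, ZRPF against PF was -0.21 ± 0.16 for *Pspc1* and -0.24 ± 0.18 and -0.49 ± 0.26 for *Pnn* 1383336_at and 1374111_at, and ZR against ZD was 0.34 ± 0.17 for *Pspc1* and 0.49 ± 0.19 and 0.43 ± 0.27 for *Pnn*. With the *Actb* ratio, ZRPF against PF was 0.07 ± 0.30 for *Pspc1*, a turn of sign, and -0.10 ± 0.33 and -0.73 ± 0.52 for *Pnn*, and ZR against ZD was 0.54 ± 0.28 for *Pspc1* and 0.58 ± 0.31 and 0.11 ± 0.49 for *Pnn*. Whether ZRPF or ZR departed from the 10-day groups thus depends on that covariate, which itself differs between the experiments.

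The 3′ to 5′ ratio of *Actb* set ZRPF rat 6 apart from the other 3 ZRPF arrays, as the *Pspc1* signals did. Among those 3 the ratio had the same order as the *Pnn* signals, the reverse of the relation seen with rat 6. It was 4.29, 4.15, 4.54 and 4.59 on the ZR arrays (rats 7, 10, 13 and 15), against 5.59, 4.95, 4.88 and 4.14 on the ZRPF arrays (rats 2, 4, 5 and 6). The ZRPF array with the lowest ratio, rat 6, was the one with the highest *Pspc1* and *Pnn* signals, and the other 3 ZRPF arrays had higher ratios than any ZR array. Among those 3, rat 2 had the highest ratio and the highest *Pnn* signals, and rat 5 had the lowest ratio and the lowest *Pnn* signals. With that ratio as a covariate, a fit chosen after the data were seen, ZR against ZRPF was 0.45 ± 0.14 for *Pspc1* and 0.47 ± 0.16 and 0.67 ± 0.25 for *Pnn*. With the *Gapdh* ratio as a covariate the values were 0.61 ± 0.12 for *Pspc1* and 0.59 ± 0.13 and 0.75 ± 0.19 for *Pnn*. Astrocyte markers were lower in ZR for 6 of 8, 4 of them at an unadjusted p under 0.05, with summed signals of 67757 to 82259 in ZR and 73284 to 88448 in ZRPF. *Aldh1l1* stood at -0.26 ± 0.10 and *Gjb6* at -0.30 ± 0.14, and the blood marker *Hbb*, which encodes a haemoglobin chain, at -0.58 ± 0.18 (limma, adjusted p = 0.927 for all 3). Meningeal and mural markers were lower for 8 of 10 (1 at an unadjusted p under 0.05), and choroid plexus markers for 6 of 8 (0 at an unadjusted p under 0.05), with summed choroid plexus signals of 7755 to 34525 in ZR and 8214 to 36344 in ZRPF. The part of the astrocyte, blood and meningeal markers was not tested. With the choroid plexus level as a covariate the differences were 0.59 ± 0.15 for *Pspc1* and 0.58 ± 0.15 and 0.73 ± 0.22 for *Pnn*.

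**Figure D2:**
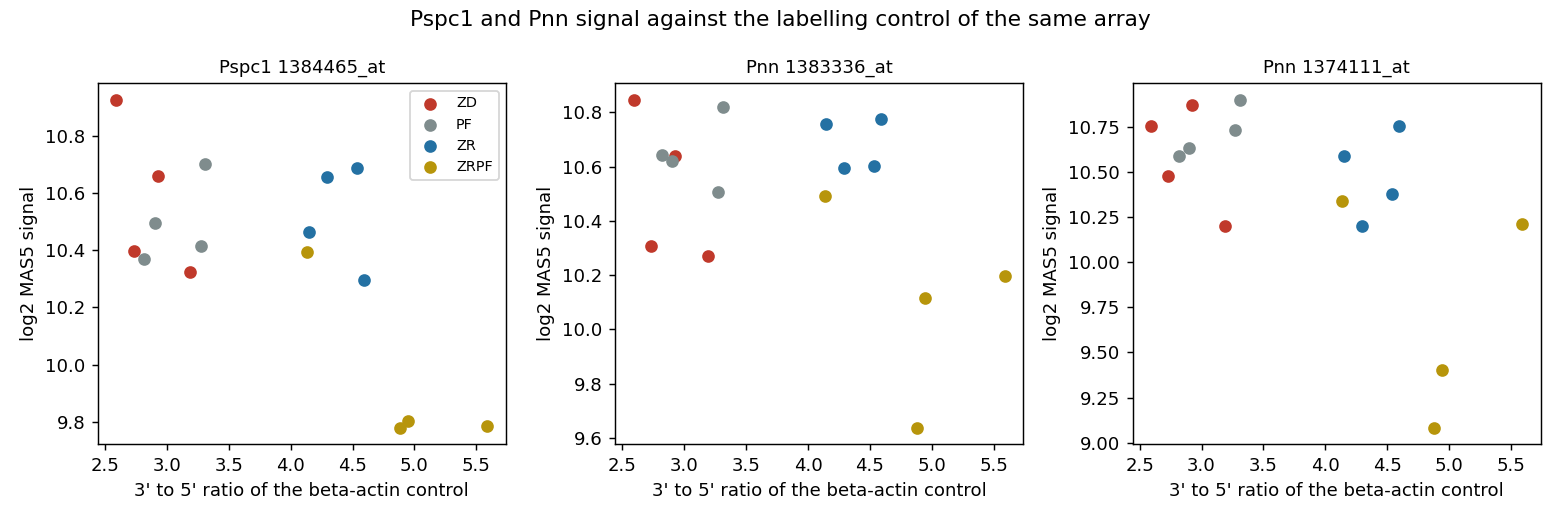
Log2 signals of *Pspc1* 1384465_at and of *Pnn* 1383336_at and 1374111_at are plotted against the 3′ to 5′ ratio of *Actb*, 1 point per array, by group. ZRPF rat 6, at a ratio of 4.14, lies within the ZR range of *Pspc1*, and the 3 ZRPF arrays at 4.88 to 5.59 have the lowest *Pspc1* signals, 9.78 to 9.80.

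At its brighter probe set, *Tra2a* showed in recovery no repeat of its difference in deficiency. At 1390278_at the ZR arrays read 11.28, 11.23, 11.15 and 11.32, against 11.20, 11.41, 10.98 and 11.01 in ZRPF, with overlapping ranges. The log2 fold change was 0.10 ± 0.08 (limma, adjusted p = 0.945), with an interval from -0.08 to 0.28. At 1392758_at it was -0.03 ± 0.12 (adjusted p = 0.986). The interval there, from -0.28 to 0.22, still reached the value of that probe set in deficiency. *Tra2b* stood at -0.01 ± 0.06 at both probe sets (adjusted p = 0.994 and 0.991), *Sfpq* at -0.01 ± 0.10 (adjusted p = 0.994), and *Nono* at -0.02 ± 0.05 and -0.02 ± 0.09 (adjusted p = 0.973 and 0.989). Of the 10 tested probe sets 0 passed, against 1 of all 15521 probe sets (0.00644%), and 808 had an unadjusted p under 0.05. Groups did not overlap, with ZR higher, in 1 of the 10, the *Pnn* probe set 1383336_at, against 1.39% of all probe sets. *Pnn* had been picked from this contrast, so its place there is a description only.

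The difference between the diet effects, ZR against ZRPF minus ZD against PF, was 0.50 ± 0.12 for *Tra2a* 1390278_at and 0.24 ± 0.17 for 1392758_at. It was 0.70 ± 0.21 and 0.86 ± 0.31 for *Pnn*, and 0.50 ± 0.20 for *Pspc1*. These 3 genes were picked from the contrasts that make up this one, so no test is given. Among all probe sets 0 (0%) passed an adjusted p of 0.05 in limma, and 1025 had an unadjusted p under 0.05.

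**Figure D3:**
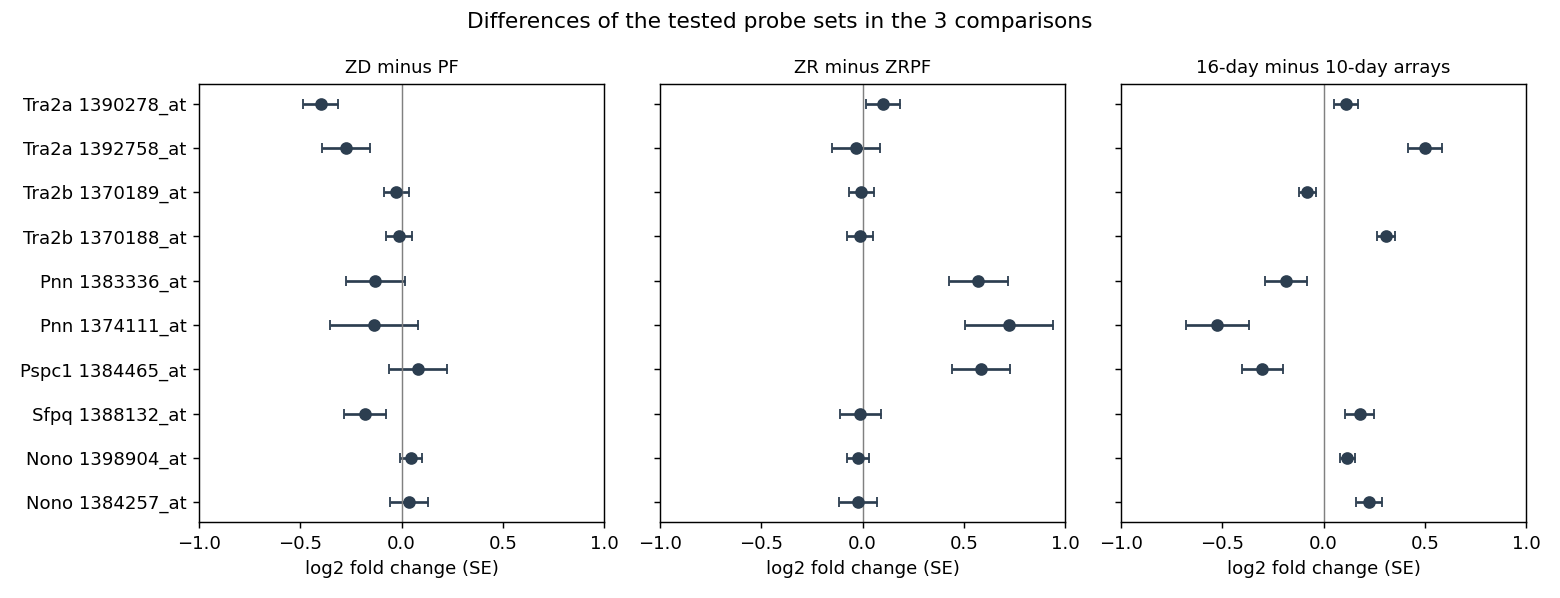
Log2 fold changes of the 10 tested probe sets are plotted with standard errors for ZD minus PF, ZR minus ZRPF, and 16-day minus 10-day arrays. *Tra2a* is on the negative side in the first panel, *Pnn* and *Pspc1* near 0.6 in the second, and in the third the 2 probe sets of *Tra2a* and of *Tra2b* lie apart from each other.

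The later experiment was set against the earlier one by the mean of ZR and ZRPF minus the mean of ZD and PF. Its weights are orthogonal to those of the contrasts that picked *Tra2a*, *Pnn* and *Pspc1*, which gives independence only where spreads are equal. The SDs in ZRPF and ZR were 0.61 and 0.24 at *Pnn* 1374111_at, and 0.30 and 0.18 at *Pspc1* 1384465_at. The p-values of *Pnn* and *Pspc1* here are thus not fully free of the picking. One probe set each of *Tra2a* and *Tra2b* and both of *Nono* rose on the 16-day arrays, while one probe set each of *Pspc1* and *Pnn* fell. At *Tra2a* 1392758_at the ZR arrays read 8.54, 8.65, 8.43 and 8.79 and the ZRPF arrays 8.57, 8.63, 8.70 and 8.65, against the ZD and PF values of 7.58 to 8.33 given above. All 8 16-day arrays were above all 8 10-day arrays, and the difference was 0.50 ± 0.08 (limma, adjusted p = 0.000194), 1.42-fold. The brighter *Tra2a* probe set, 1390278_at, overlapped between experiments and differed by 0.11 ± 0.06 (adjusted p = 0.167).

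*Tra2b* was split in the same way. At 1370188_at the ZR arrays read 11.58, 11.53, 11.41 and 11.65 and the ZRPF arrays 11.49, 11.58, 11.60 and 11.53, against 11.30, 11.25, 11.22 and 11.16 in ZD and 11.41, 11.22, 11.19 and 11.17 in PF. The lowest 16-day array was level with the highest 10-day array to 2 decimals and above it in the full values, and the difference was 0.31 ± 0.05 (limma, adjusted p = 6.29e-05), 1.24-fold. At 1370189_at the 16-day arrays had group means of 11.78 ± 0.10 in ZR and 11.79 ± 0.09 in ZRPF, against 11.85 ± 0.06 in ZD and 11.88 ± 0.04 in PF. That probe set differed by -0.08 ± 0.04 (adjusted p = 0.178). The increase of *Tra2b* 1370188_at was 0.31 ± 0.06 both for ZRPF against PF (adjusted p = 0.00355) and for ZR against ZD (adjusted p = 0.00316), where 15.7% and 17.3% of all probe sets passed. Both calls were lost with either control ratio as a covariate (limma, adjusted p = 0.119 and 0.138 with *Gapdh*, 0.510 and 0.407 with *Actb*).

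Among the DBHS proteins, *Nono* rose at both probe sets, by 0.12 ± 0.04 at 1398904_at (limma, adjusted p = 0.0267) and 0.22 ± 0.07 at 1384257_at (adjusted p = 0.0154). At 1384257_at the ZR arrays read 8.86, 8.84, 9.22 and 8.99 and the ZRPF arrays 9.00, 8.89, 8.93 and 9.17, against 8.70 to 8.89 in ZD and 8.72 to 8.81 in PF. The top of ZD reached into the 16-day range. The call at 1398904_at was lost without ZR rat 13 (adjusted p = 0.0576) and with no intensity trend in the fit (adjusted p = 0.0516). With the *Gapdh* ratio as a covariate neither probe set passed (0.12 ± 0.07 and 0.35 ± 0.11, adjusted p = 0.326 and 0.0577), and with arrays centred on their medians neither probe set passed (adjusted p = 0.285 and 0.0667). *Sfpq* averaged 10.22 ± 0.24 in ZR and 10.23 ± 0.14 in ZRPF, against 9.96 ± 0.09 in ZD and 10.14 ± 0.11 in PF, a difference of 0.18 ± 0.07 (adjusted p = 0.0737). *Sfpq* passed without ZR rat 13 (adjusted p = 0.00895) or without ZRPF rat 2 (adjusted p = 0.0350).

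*Pspc1* went the other way from its DBHS partners, with a log2 fold change of -0.30 ± 0.10 (limma, adjusted p = 0.0307). Most of this came from ZRPF, as the group means above show. The call was lost without any 1 of 8 arrays (ZR rats 10 and 15, ZRPF rats 2, 4 and 5, ZD rats 3 and 8, PF rat 4), with adjusted p of 0.0537 to 0.0661. With the *Gapdh* and *Actb* ratios as covariates this probe set turned to 0.06 ± 0.14 and 0.30 ± 0.28. The dim *Pspc1* probe set 1392162_at stood at 0.14 ± 0.18 in the fit without the filter, the sign of the DBHS partners. *Pnn* fell by 0.52 ± 0.15 on the log2 scale at 1374111_at (adjusted p = 0.0150) and stood at -0.19 ± 0.10 at 1383336_at (adjusted p = 0.184). The dim *Pnn* probe set 1380001_at stood at 0.72 ± 0.17 in the fit without the filter. It read 6.38 to 7.19 in ZD and 6.57 to 7.43 in PF, against which the ZR and ZRPF values given above were mostly higher.

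In this comparison 6 of the 10 tested probe sets passed, where 30.6% of all probe sets passed (15.9% higher and 14.7% lower). Probe sets of 1 gene are not independent, and by the brightest probe set of each gene 2 of 6 passed, *Nono* higher and *Pspc1* lower, where 30.5% of genes passed (15.2% higher and 15.4% lower), so the share is near the background. No overlap, with 16-day arrays higher, was found for 2 of the 10 (*Tra2a* 1392758_at and *Tra2b* 1370188_at) and for 4.81% of all probe sets. All 10 meningeal and mural markers were lower on the 16-day arrays, 5 of them past the threshold. All 8 choroid plexus markers were higher there (median 0.32, 1 past the threshold), as were 6 of 8 astrocyte markers (median 0.16, 3 past it), and the blood marker *Hbb* was lower and past it. The part of these cell types was not tested. The control ratios also differed between the experiments. With the *Gapdh* ratio as a covariate the differences were 0.49 ± 0.15 for *Tra2a* 1392758_at (limma, adjusted p = 0.0495), 0.25 ± 0.08 for *Tra2b* 1370188_at (adjusted p = 0.0610), -0.03 ± 0.23 for *Pnn* 1374111_at (adjusted p = 0.954) and 0.06 ± 0.14 for *Pspc1* (adjusted p = 0.834). With the *Actb* ratio none of the 10 passed.

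Probe sets of the same gene were then compared with each other, as the difference in log2 signal on each array, with exact two-sided permutation tests adjusted over 10 tests. Between the experiments this difference moved in *Tra2a*, *Tra2b* and *Pnn*. These tests carry no covariate, and the *Actb* control ratio also differed, at 4.14 to 5.59 on 16-day and 2.59 to 3.31 on 10-day arrays. The part of RNA integrity and labelling in the moved differences was not tested. For *Tra2b*, 1370189_at was above 1370188_at by 0.24 ± 0.07 on the 16-day arrays and by 0.63 ± 0.11 on the 10-day arrays (SD, n = 8 each). The ranges, 0.12 to 0.31 on 16-day and 0.46 to 0.72 on 10-day arrays, did not meet, and the change of -0.39 had an adjusted p = 0.00155 by the exact permutation test. For *Tra2a* the difference was 2.58 ± 0.18 on the 16-day arrays and 2.97 ± 0.15 on the 10-day arrays, again a change of -0.39 (exact permutation test, adjusted p = 0.00155). For *Pnn*, 1383336_at minus 1374111_at was 0.28 ± 0.26 on the 16-day arrays and -0.06 ± 0.13 on the 10-day arrays, with overlapping ranges (exact permutation test, adjusted p = 0.0104). *Nono* moved by -0.11 (exact permutation test, adjusted p = 0.0610), and passed without any 1 of 4 arrays (ZR rat 7, ZRPF rat 5, ZD rat 3, PF rat 4), with adjusted p of 0.0350 to 0.0439.

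In the 6 diet comparisons tested, no difference between probe sets could be told from the spread, and none could have passed taken singly, since with 4 arrays against 4 the exact test cannot go below 0.0286, or 0.0571 after adjustment. *Tra2a* in ZD against PF and *Pnn* in ZR against ZRPF were not tested. The *Tra2b* difference was 0.62 ± 0.11 in ZD and 0.63 ± 0.12 in PF, and 0.24 ± 0.08 in ZR and 0.24 ± 0.08 in ZRPF (SD, n = 4 each). *Tra2a* had 2.64 ± 0.10 in ZR and 2.51 ± 0.23 in ZRPF (exact permutation test, adjusted p = 0.743). For *Tra2b*, *Pnn* and *Nono* every adjusted p was 1 in the diet comparisons tested. Which exons or transcript ends each probe set reads is not analysed here, so a moved difference does not say whether any isoform moved, or which.

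**Figure D4:**
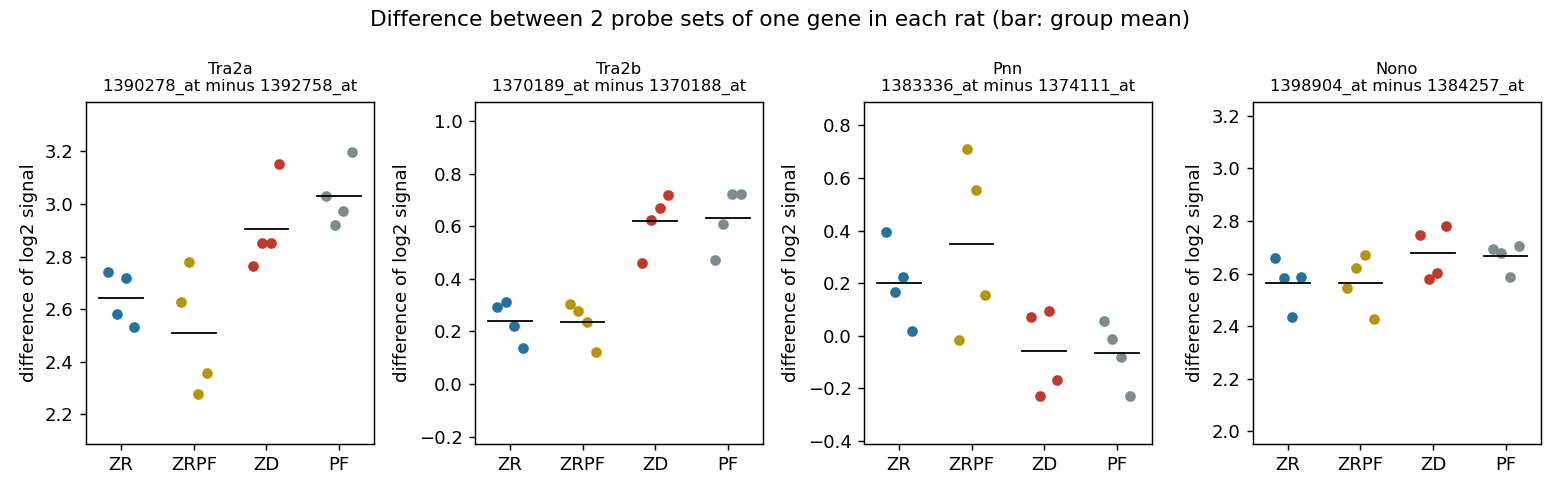
The difference in log2 signal between the tested probe sets of *Tra2a*, *Tra2b*, *Pnn* and *Nono* is plotted per array by group, with a bar at each group mean. In *Tra2b* the ZR and ZRPF arrays lie at 0.12 to 0.31, and the ZD and PF arrays at 0.46 to 0.72.

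The other genes of the splicing machinery were taken from lists and read at the brightest tested probe set of each gene. No gene of the 10 lists passed in ZD against PF or in ZR against ZRPF. Against a median log2 fold change over all genes of 0.02 in ZD against PF and -0.01 in ZR against ZRPF, list medians were -0.04 and -0.03 for the SR proteins (8 tested of 11), -0.01 and 0.01 for SR-related proteins (15 of 18), and -0.08 and -0.06 for the kinases that phosphorylate SR proteins (7 of 8). They were 0.01 and 0.03 for other paraspeckle proteins (17 of 19), 0.05 and 0.01 for other hnRNP proteins (16 of 18), 0.08 and -0.03 for the exon junction complex (7 of 9), and 0.04 and -0.01 for the core spliceosome (26 of 30). Neuronal and tissue splicing regulators (19 of 23) had medians of -0.03 and 0.03.

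The smallest p values of these lists in ZD against PF belonged to *Hnrnpdl*, *Rbm3*, *Cirbp*, *Snrpb* and *Clk1*. *Clk1*, a kinase that phosphorylates SR proteins, stood at -0.30 ± 0.09 (limma, adjusted p = 0.370), and *Hnrnpdl*, an RNA-binding protein of the hnRNP D group, at 0.33 ± 0.08 (adjusted p = 0.265). The cold-inducible RNA-binding proteins *Rbm3* and *Cirbp* stood at 0.47 ± 0.12 and 0.30 ± 0.08 (adjusted p = 0.265 and 0.288), and *Snrpb*, a core protein of small nuclear ribonucleoproteins, at 0.24 ± 0.07 (adjusted p = 0.329). Of the 17 tested genes of the paraspeckle list, 10 were higher in ZD and 7 lower. By smallest p, *Hnrnpa1* stood at -0.24 ± 0.09, *Hnrnpm* at -0.19 ± 0.08, *Hnrnph1* at -0.19 ± 0.08 and *Rbm12* at 0.32 ± 0.15 (limma, adjusted p = 0.503, 0.591, 0.592 and 0.608). In ZR against ZRPF the smallest p was that of *Upf3a*, a factor of nonsense-mediated decay, at 0.26 ± 0.07 (adjusted p = 0.927).

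Between the 16-day and 10-day experiments, list genes passed in both directions, where 30.5% of all genes passed (15.2% higher and 15.4% lower). The shares of the paraspeckle list (5 of 17) and the exon junction complex (2 of 7) are near that background, and no list was tested against it. Over all probe sets the 4747 calls fell to 1291 with the *Gapdh* ratio as a covariate and to 26 with the *Actb* ratio. The list values below are from the fit without these covariates, and the part of RNA integrity and labelling in them was not tested. Of the 17 tested paraspeckle proteins 2 rose and 3 fell, with *Rbm14*, needed for paraspeckle assembly, at 0.76 ± 0.08 (limma, adjusted p = 2.07e-06) and *Tardbp*, which encodes TDP-43, at -0.49 ± 0.10 (adjusted p = 0.000722). Of the core spliceosome 3 of 26 rose and 8 fell, with *Sf3b4*, a subunit of SF3b, at 0.55 ± 0.06 (adjusted p = 2.10e-06) and *Snrpa1*, a protein of the U2 particle, at -0.42 ± 0.08 (adjusted p = 0.000556). Of the exon junction complex 2 of 7 fell, the core subunits *Rbm8a* (-0.24 ± 0.04) and *Eif4a3* (-0.23 ± 0.05), and none rose. The hnRNP list had 3 of 16 higher and 3 lower, the neuronal regulators 4 of 19 higher and 3 lower, the SR-related proteins 1 of 15 higher (*Acin1*, 0.52 ± 0.09) and 1 lower (*U2af1*, -0.48 ± 0.07). SR proteins had 1 of 8 higher (*Srsf2*, 0.21 ± 0.04, adjusted p = 0.00151) and SR protein kinases 2 of 7 higher (*Srpk1*, 0.25 ± 0.08, and *Clk1*, 0.18 ± 0.06). *Cirbp* fell by 0.46 ± 0.06 on the log2 scale, and of the nuclear long noncoding RNAs *Meg3* rose by 0.31 ± 0.04 (adjusted p = 2.26e-05) while *Miat* stood at 0.05 ± 0.04. Medians in this comparison lay between -0.08 and 0.13 for the 8 protein lists of the preceding comparison, with -0.02 over all genes.

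Within groups, the 6 genes did not vary as 1 set. Correlations were taken over the deviations of the 16 arrays from their group means, which share arrays, and are given as a description. The bright *Pnn* probe sets went together (r = 0.84), as did *Pnn* 1383336_at and *Pspc1* (r = 0.68), and less so *Pnn* 1374111_at and *Pspc1* (r = 0.46). The 2 probe sets correlated at 0.62 in *Nono*, 0.36 in *Tra2a* and 0.23 in *Tra2b*. *Tra2b* 1370189_at ran against *Nono*, at -0.66 and -0.74.

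Among named tested probe sets, those most like *Tra2a* 1390278_at by the same measure belonged to *Snhg11* (0.91), *Pcmtd1* (0.90), *Matr3* (0.89), *Rimoc1* (0.87) and *Mbtd1* (0.87). Those most like *Pnn* 1383336_at belonged to *Ube2g1* (0.87), *Scn7a* (0.86), *Tle2* (0.85), *Nucb2* (0.84) and *Limch1* (0.83). For *Pspc1* they belonged to *Appbp2* (0.87), *Patj* (0.84), *Pak2* (0.83), *Btbd1* (0.82) and *Rnmt* (0.81). *Matr3*, which encodes a nuclear matrix RNA-binding protein and is on the paraspeckle list, was the one gene of the splicing lists among these 15. For *Tra2b* 1370189_at they belonged to *Lnx2*, *Uhrf2*, *Cisd2*, *Ddx5* and *Sorbs2* (0.79 to 0.83), for *Sfpq* to *Dcaf12l1*, *Vps16*, *Stx5*, *Tbc1d2b* and *Sh2b1* (0.82 to 0.89), and for *Nono* 1398904_at to *Syn1*, *Nubp2*, *Rnf151*, *Gpr137* and *Lzts3* (0.85 to 0.88).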

How the data were processed

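Signal intensities of 31099 probe sets were measured on 1 Affymetrix rat array per diencephalon, 16 in all. The deposited values are linear MAS5 intensities, per the submitters' processing notes, and the MAS5 version is not given in the sources used here. Total RNA was amplified and labelled from the 3′ end, per the labels' protocols. Values were taken as log2 with no further normalization, 57 control probe sets were set aside, and probe sets with a mean log2 signal at or above the median (7.35, a signal of 163) were tested, 15521 in all. Names came for 20826 probe sets with 1 gene (436 had several and 9780 had none) from the platform annotation and a RefSeq gene table. One linear model over all arrays gave group means and contrasts (limma 3.58.1 under R 4.3.3, intensity trend, Benjamini-Hochberg adjustment over all tested probe sets, threshold 0.05), and lists were counted at the brightest tested probe set of each of 9278 genes. The number of arrays limits the precision of each value.

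Every probe set of the 6 genes is named, with up to 4 genes per list by smallest p and the 5 genes most like each member by correlation. Members and lists were chosen with earlier results of these data known. Alternatives were other normalizations, filters, an offset of 32, no trend, array weights, fewer arrays and covariates. The fit was tested on simulated data. Dim probe sets are given from the fit without the filter. Equal rat numbers in PF and ZRPF did not pair the rats (correlations of deviations 0.079, 0.020 and 0.035).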

Additional observations from a re-analysis of the deposited data

Results flagged for a closer look

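In 5 of the 40 sets of 4 arrays checked (10 tested probe sets in 4 groups), 1 array lay far from the others of its group by Dixon's criterion, which chance meets in about 1 of 20 groups. *Tra2a* 1392758_at read 7.58 in ZD rat 9, against 8.08 to 8.16 in the other ZD rats. *Tra2b* 1370189_at read 11.76 in ZD rat 2, against 11.87 to 11.89. *Pspc1* read 10.39 in ZRPF rat 6, against 9.78 to 9.80 in the other ZRPF rats. *Sfpq* read 10.02 in ZRPF rat 2, against 10.29 to 10.31. *Nono* 1384257_at read 8.81 in PF rat 4, against 8.72 to 8.73. The *Pspc1* array was the farthest out, with a gap of 0.961 of the range of its group.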

How the results depend on the processing

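In ZD against PF the *Tra2a* log2 fold change kept its sign under every alternative run. It was -0.44 to -0.35 at 1390278_at and -0.34 to -0.14 at 1392758_at when single arrays were left out. In ZR against ZRPF the values were 0.53 to 0.74 for *Pspc1*, 0.41 to 0.70 and 0.50 to 0.92 for *Pnn*. Probe sets past the threshold numbered 0 to 3 in ZD against PF (3 without ZD rat 8), 0 to 9 in ZR against ZRPF (9 without ZRPF rat 6, 0 without ZR rat 7, 10 or 15 or ZRPF rat 2, 4 or 5) and 0 to 1 for the difference between the diet effects (1 without ZD rat 9 or ZRPF rat 4) when single arrays were left out. The single call in ZR against ZRPF became 0 under quantile normalization, no filter, only the brightest probe sets, no trend, only the compared arrays, and either control ratio as covariate. With the *Gapdh* and *Actb* ratios as covariates (the second chosen after seeing the data) counts fell to 1291 and 26 in the 16-day against 10-day comparison, 771 and 7 in ZRPF against PF, and 786 and 17 in ZR against ZD. ZRPF against PF had 1435 with the choroid plexus covariate and, from 2430, 1099 with the rat number as a block, which changed no direction among the 10 probe sets and no call among the 5 of *Tra2b*, *Sfpq* and *Nono*, the only ones tested there. With the *Gapdh* ratio, 16-day against 10-day turned to 0.124 for *Pnn* 1383336_at and 0.064 for *Pspc1*, and ZRPF against PF to -0.0148 for *Sfpq*. With the *Actb* ratio, 16-day against 10-day turned to 0.242 and 0.304 for those and -0.0543 for *Tra2a* 1390278_at, ZD against PF to -0.0191 and ZRPF against PF to 0.0712 for *Pspc1*. Both ratios run with the experiment and widen its errors, and the cause was not tested. With either ratio *Tra2b* 1370188_at no longer passed in ZRPF against PF or ZR against ZD, nor either *Nono* probe set between experiments. Median centring ended the *Nono* calls between experiments (0.063 and 0.169, adjusted p = 0.285 and 0.0667) and made one for *Tra2b* 1370189_at (-0.135, adjusted p = 0.0340). Values near 0 changed sign. Median centring gave -0.0080 for *Nono* 1384257_at in ZD against PF, and 0.0096, 0.0049 and 0.0051 for *Tra2b* 1370189_at, 1370188_at and *Sfpq* in ZR against ZRPF. There array weights gave 0.0133 for *Tra2b* 1370189_at and 0.0049 for *Sfpq*, and the choroid plexus covariate 0.0063 for *Sfpq*. Leaving out single arrays gave, in ZD against PF, -0.0004 to 0.062 for *Nono* 1384257_at, -0.0358 to 0.164 for *Pspc1*, -0.0392 to 0.0394 for *Tra2b* 1370188_at and -0.0426 to 0.0036 for 1370189_at. In ZR against ZRPF it gave -0.102 to 0.035 and -0.0588 to 0.0174 for *Nono* 1384257_at and 1398904_at, -0.0811 to 0.101 for *Sfpq*, -0.0957 to 0.0241 for *Tra2a* 1392758_at, and -0.0457 to 0.0317 and -0.0492 to 0.0429 for *Tra2b* 1370188_at and 1370189_at. For the differences between probe sets it gave -0.0237 to 0.0436 (*Nono*), -0.0463 to 0.0648 (*Pnn*) and -0.0647 to 0.041 (*Tra2b*) in ZD against PF, and -0.0469 to 0.0434 (*Nono*) and -0.0326 to 0.0392 (*Tra2b*) in ZR against ZRPF. The *Nono* probe set difference turned to 0.0004 in ZR against ZRPF under quantile normalization.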
